A study of Mus musculus with 16 samples.

Results

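The regions described here are lncRNA promoter peaks, that is, ATAC-seq peaks at the start sites of long noncoding RNA (lncRNA) genes that lie away from protein-coding promoters. They were chosen by position only. The peaks of both deposited lists were pooled, and a peak was kept when its centre lay within 1 kb of the start of a lncRNA transcript and over 5 kb from the start of every transcript of a protein-coding gene in the GENCODE basic annotation of mm10. The lncRNA gene types were lincRNA, antisense, processed_transcript, sense_intronic and bidirectional_promoter_lncRNA. Of 80367 listed peaks, 1299 (1.62%) were lncRNA promoter peaks. Another 1185 listed peaks had their centre within 1 kb of a lncRNA start but lay within 5 kb of a protein-coding start and were left out.

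The study compared open chromatin in Hes1-GFP-positive, non-neuroendocrine (non-NE) and Hes1-GFP-negative, neuroendocrine (NE) cells sorted from mouse small cell lung cancer (SCLC). Both groups came from the same TKO;Hes1^GFP/+ mice, which carry floxed alleles of Rb, p53 and p130 and a GFP reporter driven by the regulatory regions of 1 Hes1 allele, and so shared every allele and agent. Tumors were induced in young adult mice of mixed gender with intratracheal Ad-CMV-Cre. This adenovirus expresses Cre from a promoter active in many cell types, so Cre is not limited to 1 of them. For TKO mice given this virus, the paper states that the vast majority of tumors start in non-NE epithelial cells of the lung. The tumors of a mouse were pooled before sorting. There were 4 libraries of each group from 3 mice, with 2 libraries of each group from mouse 524, and each library was run on 2 lanes, which gives 16 runs. The deposited lists hold the peaks that differed between the groups, split into peaks more open in non-NE cells (opened) and peaks less open in non-NE cells (closed). Each peak has 1 mean normalized read count over all libraries or runs. The files used here give no value per library and no peak that did not differ, so depth per library is unknown. The standard errors deposited with the authors' own fold changes were not used, and no replicate error is given. Intervals below are 95% Wilson intervals and cover counting error only, and peaks are not replicates.

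LncRNAs are long transcripts that are not translated into known proteins. Some act at the site where they are made, as Tsix does on the X chromosome, some build nuclear bodies, as Neat1 does, and some serve mainly as precursors of microRNAs or small nucleolar RNAs. Many lncRNA starts lie in enhancers of nearby protein-coding genes, and open chromatin at a start does not show how much RNA is made.

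The sorted groups carried the chromatin of their labels at marker promoters. The NE marker genes Chga, Chgb, Calca, Insm1, Uchl1, Ncam1, Resp18, Scg2 and Neurod1 had closed promoter peaks and no opened one, and Syp and Dll3 had no listed promoter peak. Of 7 non-NE marker genes, 6 had an opened promoter peak, among them Hes1, Rest, Yap1 and Wwtr1, and Vim had no listed one. Of all listed protein-coding promoter peaks, 74.3% were opened. Markers of other lung epithelial cells were also opened in non-NE cells, with 3 of 4 club cell genes (Scgb1a1, Scgb3a2 and Cyp2f2), 4 of 4 AT1 genes (Ager, Pdpn, Hopx and Aqp5), 2 of 4 AT2 genes (Sftpb and Lamp3) and 2 of 3 ciliated cell genes (Foxj1 and Dynlrb2). Of the leukocyte, endothelial and fibroblast markers, Cd68 (1 of 4), Kdr (1 of 3) and Col1a1 (1 of 3) had an opened promoter peak and none had a closed one. Per the study's methods, tumor cells were stained for surface markers of leukocytes, endothelial cells and red blood cells for sorting. The part of other cell types in the lncRNA promoter peaks was not tested.

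Of the 1299 lncRNA promoter peaks, 723 were opened (55.7%, 52.9 to 58.3) and 576 were closed, beside 50.8% opened and 49.2% closed among all listed peaks. With 1 peak per gene the opened share was 53.4%. The opened share of all lncRNA promoter peaks lay between those of the other 2 classes of peak. Of 10359 protein-coding promoter peaks (centre within 1 kb of a protein-coding start), 74.3% (73.4 to 75.1) were opened, and of 61755 distal peaks (over 5 kb from protein-coding and over 1 kb from lncRNA starts), 45.7% (45.3 to 46.1) were opened. The shares were similar across lncRNA gene types. Of 798 peaks nearest to a lincRNA start, 446 were opened (55.9%), as were 190 of 344 at antisense genes (55.2%), 67 of 119 at processed_transcript genes (56.3%) and 20 of 38 at sense_intronic genes (52.6%, 37.3 to 67.5). No peak was nearest to a bidirectional_promoter_lncRNA start.

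The lncRNA promoter peaks stood for 1071 lncRNA genes by their nearest start. The annotation holds 7680 lncRNA genes with a start over 5 kb from every protein-coding start, and 1069 of these (13.9%) had a lncRNA promoter peak. Of the 1071 genes, 566 had opened peaks only, 490 had closed peaks only and 15 had both. A single peak represented 881 genes, and 190 genes had 2 or more, which share a gene and are not independent. In 175 of those 190 genes all peaks were on the same list.

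Opened peaks covered the lncRNA start more often than closed ones, at the same median distance. They had a median width of 322 bp against 254 bp for closed ones, and the part of width in this was not tested. The median distance from the peak centre to the nearest lncRNA start was 286 bp for opened and for closed peaks, and 687 of the 1299 centres lay upstream of the start. The start itself lay inside 40.7% of opened (37.1 to 44.3) and 33.0% of closed peaks (29.3 to 36.9), 484 peaks in all (37.3%), of which 294 (60.7%, 56.3 to 65.0) were opened, against 429 of the 815 others (52.6%, 49.2 to 56.0). At the 1 kb limit, 53 of the 82 peaks 900 to 1000 bp from a start were opened, with a median mean normalized count of 40.4, and 43 of the 78 peaks just outside, 1000 to 1100 bp away, were opened, with a median of 36.5. At the 5 kb limit, 10 of 11 peaks just inside (5000 to 5500 bp from a protein-coding start) and 8 of 11 just outside (4500 to 5000 bp) were opened, with medians of 94.2 and 23.3.

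Most lncRNA promoter peaks lay outside protein-coding genes. Outside protein-coding gene bodies were 939 peaks, of which 535 (57.0%) were opened. Another 293 lay inside a protein-coding gene on the strand opposite to the lncRNA (156 opened, 53.2%). There were 62 inside a gene on the same strand (32 opened, 51.6%) and 5 inside genes on both strands, all of them closed (0 to 43.4% opened). Of all lncRNA promoter peaks 55.7% were opened, and of all listed peaks 50.8%. Inside a protein-coding gene lay 26.0% of opened and 29.9% of closed lncRNA promoter peaks, against 58.3% and 55.3% of all listed peaks.

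Opened peaks lay nearer to protein-coding starts than closed peaks, with median distances of 35895 bp and 62365 bp. The opened share was highest nearest to them. It was 69.1% (63.9 to 73.9) of the 327 peaks at 5 to 20 kb, 56.0% of 359 at 20 to 50 kb, 57.6% of 264 at 50 to 100 kb and 41.3% (36.2 to 46.5) of 349 beyond 100 kb. In distal peaks the share was lower in each of these ranges, at 56.2%, 50.2%, 43.2% and 32.3%.

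Chromosomes differed in their opened share. Chromosome 11 had 52 opened of 70 lncRNA promoter peaks (74.3%, 63.0 to 83.1), beside 71.1% of all listed peaks on that chromosome. Chromosome 19 had 31 of 42 (73.8%, 58.9 to 84.7) and chromosome 16 had 27 of 40 (67.5%, 52.0 to 79.9), beside 60.3% and 45.9% of all their listed peaks. Chromosome 10 had 26 of 67 (38.8%, 28.0 to 50.8) beside 45.6%, and chromosome X had 2 of 11 (18.2%, 5.14 to 47.7) beside 43.5%. Without chromosome 11 the opened share of lncRNA promoter peaks was 54.6%, and that of all listed peaks was 49.4%.

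The mean normalized count was higher in opened than in closed lncRNA promoter peaks. It is the mean over all libraries or runs of reads in a peak after scaling for library size. The opened peaks ran from 4.52 to 1055 with a median of 50.4 (quartiles 24.2 and 114), and the closed peaks from 4.47 to 420 with a median of 29.0 (quartiles 16.5 and 56.4), a ratio of medians of 1.74 (3.05 at genes with a symbol of their own). All listed peaks had medians of 40.7 and 25.8, so the same order held for them. A count over 100 was reached by 203 opened (28.1%) and 63 closed lncRNA promoter peaks (10.9%), beside 25.5% and 9.20% of all listed peaks. A count over 200 was reached by 87 opened and 13 closed lncRNA promoter peaks, but all listed peaks were not counted at this limit. Since the count averages both groups, it does not give the level in either. Opened peaks were also wider, with a median of 322 bp against 254 bp, and 22.1% of them against 9.38% of closed ones were over 500 bp wide, as in all listed peaks (300 and 248 bp, 21.5% and 7.14%).

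The base composition of lncRNA promoter peaks lay nearer to distal peaks than to protein-coding promoters. The median GC content was 52.2% in opened and 50.9% in closed lncRNA promoter peaks, against 63.6% and 60.3% at protein-coding promoters and 49.2% and 48.3% in distal peaks. CpG-rich peaks, defined by a GC content of at least 50% and an observed to expected CpG ratio of at least 0.6, made up 82 of 723 opened (11.3%, 9.23 to 13.9) and 44 of 576 closed lncRNA promoter peaks (7.64%, 5.74 to 10.1). The share over both lists was 9.70%, and it was 15.1% where the peak overlapped the start and 20.2% at genes with a symbol of their own. The shares of CpG-rich peaks were 66.0% and 42.2% at protein-coding promoters, 2.19% and 1.46% in distal peaks and 15.2% and 4.70% in all listed peaks. Repeats took up little of these peaks, as of all listed peaks. The median soft-masked share was 6.70% of bases in opened and 4.60% in closed lncRNA promoter peaks, beside 6.09% and 4.99% in all listed peaks. Masked over more than 50% of their length were 13 peaks of each list (1.80% and 2.26%), beside 2.23% and 2.67% of all listed peaks.

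Short sequence motifs were searched as exact strings on both strands in the central 200 bp of each peak, or in the whole of a shorter peak, and the same was done for all listed peaks. No string contains another. A match describes the letters only and is not a binding site. Peaks narrower than 200 bp made up 22.3% of opened and 31.4% of closed lncRNA promoter peaks. The string CATTCC, the core of motifs bound by TEAD factors, which act with YAP1, was in 132 of 723 opened (18.3%, 15.6 to 21.2) and 52 of 576 closed lncRNA promoter peaks (9.03%, 6.95 to 11.6), beside 6939 of 40828 opened and 3067 of 39539 closed peaks (7.76%) among all listed ones. The AP-1 string TGANTCA had the opposite order, with 80 opened (11.1%, 8.98 to 13.6) and 139 closed peaks (24.1%, 20.8 to 27.8), beside 10.1% and 25.4%. The E-box CAGCTG was in 100 opened (13.8%, 11.5 to 16.5) and 137 closed peaks (23.8%, 20.5 to 27.4), beside 11.2% and 21.3%. For these 3 strings the intervals of the opened and closed lncRNA promoter peaks did not overlap, and the order was that of all listed peaks. With whole peaks searched, which gives wider peaks more sequence, the order stayed and the shares were 28.4% and 13.4% for TEAD, 17.6% and 28.8% for AP-1 and 21.3% and 33.3% for the E-box.

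For the other strings the intervals of the 2 lists overlapped. The FOX string TGTTTAC was in 5.26% of opened and 7.12% of closed lncRNA promoter peaks, beside 6.47% and 9.17% of all listed peaks, but with whole peaks searched the order turned (9.68% and 8.16%). RBPJ, the DNA-binding partner of the Notch receptors, has the string GTGGGAA, which was in 5.67% and 3.65%, beside 5.27% and 3.61% (10.5% and 6.77% of lncRNA promoter peaks with whole peaks searched). The NKX2 string CACTTGA was in 5.12% and 3.47%, beside 6.32% and 4.69%. The CTCF core, AGGGGGC or AGGTGGC, was in 10.2% and 8.16%, beside 9.65% and 7.47% (18.3% and 13.0% with whole peaks). The GC box GGGCGG was less common than at protein-coding starts. It was in 15.6% and 13.2% of lncRNA promoter peaks, against 53.8% and 33.3% of protein-coding promoter peaks, 7.26% and 4.80% of distal peaks and 6954 of 40828 opened and 2838 of 39539 closed peaks among all listed ones. The ETS string CCGGAAG was in 3.73% and 2.43%, against 9.24% and 2.18% at protein-coding promoters and 3.09% and 1.44% of all listed peaks. The CCAAT box CCAAT was in 18.5% and 22.0%, against 21.2% and 18.5% at protein-coding promoters and 19.9% and 21.6% of all listed peaks, and its order also turned with whole peaks (32.8% and 29.7%). The TATA box TATAAA was in 5.39% and 6.42%, against 2.61% and 3.75% at protein-coding promoters and 5.61% and 7.75% of all listed peaks, and with starts within 500 bp its order turned (5.56% and 4.11%). The NFI string, searched in its full palindromic form, was in 1 opened and 1 closed lncRNA promoter peak. None of the 13 motifs was found in 206 opened (28.5%) and 140 closed peaks (24.3%), beside 29.4% and 26.7% of all listed peaks.

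The REST half-site string TTCAGCACC was in 3 opened lncRNA promoter peaks (0.415%, 0.141 to 1.21) and in none of the 576 closed ones (0 to 0.663%), beside 0.301% and 0.293% of all listed peaks. With whole peaks searched it was in 0.692% of opened and 0.174% of closed ones. REST is a repressor of neuronal genes. The 3 peaks, named after their values were seen, were at Gm40038 on chromosome 3, Gm45332 on chromosome 8 and Gm45833 on chromosome 8, with mean normalized counts of 34.3, 25.2 and 14.6. Their searched windows, chr3:41172843-41173042, chr8:92158262-92158461 and chr8:121673600-121673751 of mm10, are shown on the plus strand because so few peaks hold the string. Capitals mark every match to a searched motif, and the REST string reads GGTGCTGAA on this strand in all 3.
Gm40038: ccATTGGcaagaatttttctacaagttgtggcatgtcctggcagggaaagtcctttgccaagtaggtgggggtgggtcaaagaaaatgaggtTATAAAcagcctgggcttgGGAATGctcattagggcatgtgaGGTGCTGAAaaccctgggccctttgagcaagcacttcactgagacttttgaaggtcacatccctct
Gm45332: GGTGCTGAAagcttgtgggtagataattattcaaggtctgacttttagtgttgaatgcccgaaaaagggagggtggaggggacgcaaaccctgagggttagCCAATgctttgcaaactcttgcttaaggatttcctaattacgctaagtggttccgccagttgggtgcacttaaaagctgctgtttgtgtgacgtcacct
Gm45833: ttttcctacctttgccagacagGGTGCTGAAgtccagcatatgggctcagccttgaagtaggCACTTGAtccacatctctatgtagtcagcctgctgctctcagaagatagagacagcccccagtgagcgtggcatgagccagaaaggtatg

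The 10 opened lncRNA promoter peaks with the highest mean normalized count stood at 9 genes. The highest, 1055, was at Gm28095 on chromosome 1 (chr1:16227820-16228887), 122579 bp from the nearest protein-coding start, that of Rdh10, a retinol dehydrogenase. At 6720427I07Rik on chromosome 13, adjacent peaks had 761 and 599. The peak over the start of Mir22hg, the host gene of miR-22, had 690. Gm13480 followed with 678, inside Lypd6b on the opposite strand and 24305 bp from its start. Then came 4632428C04Rik with 653 near Hes1, 2410080I02Rik with 604, 5419 bp from the start of Klf9, Gm2885 with 587 near Ezr, F630040K05Rik with 585, and Gm4876 with 570 near Tes. Of these 10 peaks, 6 were CpG-rich: both at 6720427I07Rik and those at Mir22hg, 4632428C04Rik, 2410080I02Rik and Gm2885.

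The 10 closed peaks with the highest count ran from 420 to 237. Gm12860 on chromosome 4 (chr4:120615566-120616193) had 420. The peak shared by Gm11906 and C230012O17Rik had 333 and lay 6803 bp from the start of Gpr63. At 4930519A11Rik the count was 319, 35868 bp from the start of Mycn, a MYC family gene amplified in part of human SCLC. 0710001A04Rik had 300 and lies on the strand opposite to Celf4, an RNA-binding protein gene of neurons. The others were Gm45330 (274), Gm32618 (273), D530014G21Rik (270), 1700061I17Rik (250), Gm42555 (238) and 5330439B14Rik (237). Of these 10 peaks, 2 were CpG-rich, those at Gm11906 and Gm42555. All 10 lay below the lowest of the 10 opened peaks, 570.

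The central 200 bp of the 3 highest opened and the 3 highest closed peaks are shown to set their composition side by side, from the plus strand of mm10. The opened windows are chr1:16228254-16228453, chr13:48546525-48546724 and chr11:75461402-75461601, and the closed windows are chr4:120615780-120615979, chr4:24966516-24966715 and chr12:12904649-12904848. Capitals mark the matches to searched motifs.
Gm28095: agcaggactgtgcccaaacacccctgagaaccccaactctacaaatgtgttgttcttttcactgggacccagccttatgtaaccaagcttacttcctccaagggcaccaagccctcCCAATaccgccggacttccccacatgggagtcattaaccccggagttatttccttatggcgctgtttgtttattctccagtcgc
6720427I07Rik: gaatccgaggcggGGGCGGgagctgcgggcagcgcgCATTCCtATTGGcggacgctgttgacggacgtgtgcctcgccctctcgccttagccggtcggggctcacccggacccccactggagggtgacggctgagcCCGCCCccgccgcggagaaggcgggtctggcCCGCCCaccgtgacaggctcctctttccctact
Mir22hg: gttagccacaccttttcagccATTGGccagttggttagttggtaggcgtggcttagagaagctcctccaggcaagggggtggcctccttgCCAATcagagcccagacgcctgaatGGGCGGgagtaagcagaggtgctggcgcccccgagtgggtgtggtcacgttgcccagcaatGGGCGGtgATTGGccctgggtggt
Gm12860: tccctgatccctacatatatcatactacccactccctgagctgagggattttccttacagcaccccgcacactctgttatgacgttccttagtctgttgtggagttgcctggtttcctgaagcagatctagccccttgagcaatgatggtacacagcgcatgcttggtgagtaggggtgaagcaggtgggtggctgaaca
Gm11906: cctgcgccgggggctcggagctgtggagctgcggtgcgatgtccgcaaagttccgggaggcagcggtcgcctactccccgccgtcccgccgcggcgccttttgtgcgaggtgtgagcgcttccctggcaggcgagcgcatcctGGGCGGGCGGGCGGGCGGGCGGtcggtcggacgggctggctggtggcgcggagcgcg
4930519A11Rik: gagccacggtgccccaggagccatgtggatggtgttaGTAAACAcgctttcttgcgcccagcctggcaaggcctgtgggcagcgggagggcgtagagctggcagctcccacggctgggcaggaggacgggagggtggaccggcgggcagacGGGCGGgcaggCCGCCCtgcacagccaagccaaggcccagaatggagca

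The Gm28095 window held a CCAAT box. That of 6720427I07Rik held 3 GC boxes, a TEAD string and a CCAAT box, with the TEAD string at 48546561 to 48546566 just before the CCAAT box. In the Mir22hg window there were 3 CCAAT boxes and 2 GC boxes around the start at 75461539. The Gm12860 window held none of the searched motifs, that of Gm11906 had 5 overlapping GC boxes in a row, and that of 4930519A11Rik had a FOX string and 2 GC boxes.

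Most lncRNA promoter peaks on the list of microRNA host genes were opened. Of 19 listed genes in the annotation, 17 had a start over 5 kb from protein-coding starts, and 7 of these had a lncRNA promoter peak, beside 13.9% of all lncRNA genes with such a start. They had 16 peaks in all, of which 14 were opened and 2 closed, beside 55.7% opened among all lncRNA promoter peaks. Lncpint and Mir22hg had 8 of the 14. Mir22hg had 3 opened peaks with mean normalized counts of 97.4, 690 and 114. Dleu2, the host of miR-15a and miR-16-1, had opened peaks of 380 and 278 at separate starts, both of them CpG-rich. Mir99ahg, the host of miR-99a, let-7c-1 and miR-125b-2, had opened peaks of 21.9, 153 and 15.8. Mir155hg had 1 opened peak of 44.8. Lncpint, a p53-induced lncRNA, had 5 opened peaks from 15.3 to 77.6 at several starts. The closed peaks were at Mirg, the maternally expressed host of a large microRNA cluster on chromosome 12, with 15.5, and at Pvt1, which lies next to Myc, with 88.3. The other 10 had no peak that met the rule, and include Mir17hg, Mir9-3hg, H19, Meg3 and Rian.

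The mature microRNAs encoded inside 4 of these opened genes, on the same strand, are given for 1 arm each, with the seed (bases 2 to 8) in capitals, because the starts of their host genes had opened peaks. Peaks elsewhere in these genes were not analysed here. Sequences are from RefSeq (GRCm38), whose table matched 5 of the 7 host genes with a peak, all but Lncpint and Pvt1. The microRNAs themselves were not measured. Among those shown only miR-15a-5p and miR-16-5p, both from Dleu2, share a seed, AGCAGCA.
miR-22-3p: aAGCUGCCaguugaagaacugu
miR-15a-5p: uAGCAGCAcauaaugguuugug
miR-16-5p: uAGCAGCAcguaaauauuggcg
miR-99a-5p: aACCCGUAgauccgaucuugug
let-7c-5p: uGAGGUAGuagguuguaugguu
miR-125b-5p: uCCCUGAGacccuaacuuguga
miR-155-5p: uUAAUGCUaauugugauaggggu

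Nuclear body and housekeeping lncRNAs had 8 peaks at 4 of 7 genes with a start that far from protein-coding starts, 6 opened and 2 closed, beside 55.7% opened among all lncRNA promoter peaks. The 6 came from 3 genes. Of all lncRNA genes with such a start, 13.9% had a peak, which is the share to set beside the gene count of each list. Malat1, an abundant lncRNA of nuclear speckles, had 3 opened peaks of 50.4, 65.4 and 254. Neat1, the scaffold of paraspeckles, had an opened peak of 108, and an opened peak of 487 lay within 1 kb of a Neat1 start but nearer to that of another lncRNA gene. The peak at 2900097C17Rik, the mouse gene for Norad, was opened with 44.1. Miat, a nuclear lncRNA of neurons, had 2 closed peaks of 12.3 and 11.9. Crnde, Dancr and Firre had no peak that met the rule.

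Of 13 p53, Myc and growth lncRNAs with such a start, 7 had 14 peaks, 13 opened and 1 closed, the closed one at Pvt1, beside 55.7% opened among all lncRNA promoter peaks. Of the 13, 8 were at Lncpint and Mir22hg. Several of them also stand in the lists above. Trp53cor1, a p53 target known as lincRNA-p21, had an opened peak of 48.9, 11914 bp from the start of Cdkn1a, which encodes the cell cycle inhibitor p21. Lockd had an opened CpG-rich peak of 408, 8069 bp from the start of Cdkn1b, which encodes p27. The p53 gene itself is floxed and targeted by Cre in both groups. Genes without a lncRNA promoter peak were Carmn, Chaer1, Epb41l4aos, Haglr, Hotair and Mir17hg.

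Of 14 neural and endocrine lncRNAs with a start over 5 kb from protein-coding starts, 4 had 6 peaks, 2 opened and 4 closed, beside 55.7% opened among all lncRNA promoter peaks. The opened peaks were 8.42 at Rmst and 14.4 at Sox2ot, whose gene spans Sox2. The closed peaks were the 2 at Miat and 2 at Zfhx2os, with 21.5 and 17.5. All 6 lay below the median of closed lncRNA promoter peaks, 29.0. Genes without a lncRNA promoter peak include Meg3, Dlx6os1, Dlx1as and Pantr1.

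Among snoRNA host genes 3 of 11 had a peak (13.9% of all lncRNA genes did), with Snhg20 (87.6) and Snhg12 (114) opened and Snhg5 (40.0) closed. Of 10 imprinted lncRNAs 3 had a peak. Airn, which silences the paternal Igf2r region, had an opened peak of 93.3, Platr4 an opened peak of 18.6, and Mirg the closed peak given above. Of 5 X inactivation lncRNAs only Tsix, the antisense repressor of Xist, had a peak, opened with 121, and Xist, Jpx, Ftx and Firre had none that met the rule. None of the 3 lung and endoderm lncRNAs with a start that far from protein-coding starts, Fendrr, Hand2os1 and Hnf4aos, had one. Sfta3-ps, which the list holds under a wrong spelling, is not in these counts or in the totals below. Named after its value was seen, it had an opened peak of 68.0, 5593 bp from the start of Nkx2-1, a transcription factor of lung epithelium. Across the 8 lists, 22 genes had 36 lncRNA promoter peaks, 29 of them opened (80.6%, 65.0 to 90.2) and 7 closed, beside an opened share of 55.7% in all lncRNA promoter peaks and 69.1% in those at genes with a symbol of their own. Several genes gave more than 1 of these peaks.

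Windows of 2 gene-list peaks with searched motifs, picked after the values were seen, are shown for composition, from chr16:84702888-84703087 (Mir155hg) and chrX:103447521-103447720 (Tsix), plus strand of mm10, with motif matches in capitals. The Mir155hg window held 2 GC boxes, and the Tsix window held a CTCF core, an NKX2 string and a GC box.
Mir155hg: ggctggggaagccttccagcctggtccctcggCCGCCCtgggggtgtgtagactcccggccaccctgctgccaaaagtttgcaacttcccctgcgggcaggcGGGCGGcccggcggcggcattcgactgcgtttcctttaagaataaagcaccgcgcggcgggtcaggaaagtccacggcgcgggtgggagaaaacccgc
Tsix: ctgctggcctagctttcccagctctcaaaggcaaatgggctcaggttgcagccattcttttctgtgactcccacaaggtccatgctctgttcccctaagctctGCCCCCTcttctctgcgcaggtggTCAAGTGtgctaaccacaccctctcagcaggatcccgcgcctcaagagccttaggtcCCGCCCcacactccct

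Peaks at genes with a symbol of their own, rather than a Gm number, a Rik clone or a clone accession, numbered 94 (7.24%), of which 65 were opened (69.1%, 59.2 to 77.6), against 658 of the 1205 others (54.6%, 51.8 to 57.4). Some of these genes outside the lists, picked after their values were seen, lie beside genes of known function. Junos, beside the AP-1 gene Jun, had 3 opened peaks of 273, 167 and 33.3. Ptgs2os2, 65037 bp from the start of Ptgs2, had opened peaks of 160 and 12.2. Plxna4os1 (310), Tmem250-ps (388), Smkr-ps (302) and Lncppara (217) were opened. Egfros, which lies inside Egfr on the other strand, had a closed peak of 89.5, and Has2os, near the hyaluronan synthase gene Has2, a closed peak of 137. Nr6a1os (127) and Dnmt3aos (41.8) were also closed, as were 3 adjacent peaks at Pip5k1bos of 22.0, 13.8 and 15.4.

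The promoter of the nearest protein-coding gene was more often closed beside closed lncRNA promoter peaks than beside opened ones, and more often opened beside opened ones. Of all listed protein-coding promoter peaks, 74.3% were opened. Of 723 opened lncRNA promoter peaks, 361 (49.9%, 46.3 to 53.6) had a neighbour with opened promoter peaks only, 35 (4.84%) a neighbour with closed ones only, 9 both and 318 (44.0%) neither. Of 576 closed peaks, 115 (interval 16.9 to 23.4%) had a neighbour with closed promoter peaks only, 121 (21.0%, 17.9 to 24.5) one with opened ones only, 4 both and 336 (58.3%) neither. For opened distal peaks the neighbour was opened only in 40.7% and closed only in 7.01%, and for closed distal peaks it was closed only in 8381 of 33521 and opened only in 6276 of 33521. The 1299 peaks had 924 nearest protein-coding genes, so many share a neighbour.

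Marker genes were the nearest protein-coding gene of 11 lncRNA promoter peaks, 9 opened and 2 closed, beside 55.7% opened among all of them. Hes1, the Notch target whose locus drives the GFP, had 5 of them, all opened, at 3 lncRNA genes on the same side of it: 9030404E10Rik (155 and 107, 25219 and 25893 bp from the Hes1 start), 4632428C04Rik (653, at 56450 bp) and Gm26569 (484 and 38.0, at 119062 and 119801 bp). Gm20416, 38831 bp from the start of the TEAD partner Yap1 and inside that gene on the opposite strand, had an opened peak of 106. Near the AT2 marker Etv5, 9230117E06Rik (32.3) and Gm15651 (92.6) had opened peaks. Gm4258 had an opened peak of 131 at 276699 bp from the start of Ptprc. The closed peaks were at A930019D19Rik, 37351 bp from the start of the NE transcription factor gene Insm1, with 16.7, and at Gm19590, 142590 bp from the start of Kdr, with 105. The window of 4632428C04Rik, chr16:30008791-30008990 on the plus strand of mm10, held 2 GC boxes (capitals). It was added after its value was seen because its peak has the highest mean normalized count of those near Hes1.
4632428C04Rik: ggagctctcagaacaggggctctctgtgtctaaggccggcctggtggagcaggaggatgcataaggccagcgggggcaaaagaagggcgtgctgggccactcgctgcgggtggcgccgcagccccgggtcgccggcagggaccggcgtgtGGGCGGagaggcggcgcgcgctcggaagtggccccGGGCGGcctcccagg

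Other protein-coding genes were the nearest to several lncRNA promoter peaks, and these were picked by that number after the values were seen. Mkln1 had 8, all opened, at Lncpint, 2210408F21Rik and Gm13844, beside 55.7% opened among all lncRNA promoter peaks. Ly86 had 6, all opened, and Cebpb, Efna3, Klf9 and Nfe2l3 had 4 opened each. Those of Cebpb, a leucine zipper transcription factor, were at Gm14321 (25.8, 206 and 85.6) and 9230111E07Rik (350). Gm10260 had 5 and Cavin2 had 4, all closed. Mixed groups lay near Irs2 (4 opened, 3 closed), Jun (4 and 2), Zfp608 (4 and 1), Zfp281 (3 and 2), Rreb1 (3 and 1), Slc20a1 (2 and 2), Cd83 (1 and 3) and Zeb2 (1 and 3).

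Among genes with 4 or more lncRNA promoter peaks, Lncpint had 5, and 2210408F21Rik and Gm15998 had 4 each. All were opened, beside 55.7% of all lncRNA promoter peaks. Those of Gm15998, inside Efna3 on the opposite strand, had counts of 175, 92.6, 63.2 and 76.5 within a short stretch (chr3:89314238-89315899). Those of 2210408F21Rik had lower counts, from 9.08 to 35.2.

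Peaks on both lists were found at 15 genes, in some of them beside the same start and in others beside different starts. At Gm10432 a closed peak of 39.2 (chr12:100275895-100276162) lay upstream and an opened peak of 169 (chr12:100276954-100277279) downstream of the start at 100276609. At 5430425K12Rik the closed peak had 63.4 and the opened peak, at another start, 376. Gm44812 had opened peaks of 495 and 30.1 and a closed one of 59.5. At other genes the closed peaks had the higher mean count over both groups. 5330413P13Rik had closed peaks of 117 and 40.7 and an opened one of 8.15, 8030442B05Rik had 69.9 closed and 47.7 opened, and 1700052H01Rik had 79.3 closed and 60.1 opened. At Gm19705 there were closed peaks of 38.7 and 29.2 and an opened one of 76.8, and at 2310040G07Rik opened peaks of 80.5 and 13.8 and a closed one of 59.6. The remaining genes were 2610203C22Rik (132 opened, 44.1 closed), Gm8075 (93.0 and 70.2), Gm38414 (69.3 and 63.1), Gm37359 (60.6 and 26.9), Gm28863 (53.6 and 23.7), AC129179.2 (44.6 and 19.4) and AC134555.1 (19.3 and 18.6).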

How the data were processed

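ATAC-seq was done on 4 GFP-positive and 4 GFP-negative libraries of 3 mice, 2 lanes each (16 runs). Per the study's methods and the submitters' processing notes, the authors aligned reads to mm10 with Bowtie2 2.3.4.1, removed duplicates, called peaks with MACS2 in each sample with read ends shifted and extended around the cut site, merged the peaks of all samples, counted reads per peak and ran DESeq2 1.28.1. The deposited signal value used here is the mean over all libraries or runs of read counts divided by size factors. The authors name it as a base mean, so it has no SD or n. The other deposited columns hold the authors' own log2 fold changes, their standard errors, Wald statistics, p-values and adjusted p-values, which were not used. The limits of the lists are the authors' own, and a peak that did not pass them is not analysed here. Whether the lanes of a library were merged before counting is not given in the sources used here.

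Starts came from GENCODE M21 basic and sequence from GRCm38.p6, the assembly of mm10. All 80367 peaks lay inside its chromosomes and no region was on both lists. The nearest start, base composition, motif matches and Wilson intervals (95%) were computed with Python 3.11.15, numpy 2.4.6, pandas 2.3.3 and scipy 1.17.1. The functions for the nearest start, motif matches and Wilson intervals were tested on simulated data, and that for base composition was not. Protein-coding starts were those of all transcripts of protein-coding genes. No test was run, since no value per library was at hand, and depth per library is unknown.

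Named genes were every gene of 8 lists with a member peak, the 10 members of each list with the highest mean count, genes with 4 or more members or with members on both lists, and members nearest to a cell type marker. Sequences were shown for the 3 highest members of each list and for 2 gene-list members with a motif, picked after the values were seen. Exceptions are named in the text. A marker gene and a gene-list sequence withheld for evaluation are not reported here. The members and lists were chosen with earlier results of these data known. In all, 13 alternatives were planned, and 1 was added after the data were seen.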

Additional observations from a re-analysis of the deposited data

How the results depend on the processing

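No paired analysis was possible because the files hold no value per library. The number of lncRNA promoter peaks was 857 with a start within 500 bp, 1995 within 2 kb, 484 where the peak had to overlap the start, 750 with a mean count at or above the median of all listed peaks and 94 at genes with a symbol of their own, since each limit admits fewer or more peaks. The opened share, 55.7% in the main setting, became 60.7%, 64.4% and 69.1% under the latter 3. It was lower with 1 peak per gene (53.4%), over 10 kb from protein-coding starts (53.5%) and with starts within 2 kb (54.5%). It was 54.6% with starts within 500 bp, with peaks within 100 bp merged and without chromosome 11. Over 2 kb from protein-coding starts it was 56.9%, and on autosomes 56.0%. The CpG-rich share, 9.70% in the main setting, became 11.4%, 7.72%, 15.1%, 12.9% and 20.2% in the order given. The ratio of median counts became 1.37 with the count limit and 3.05 at genes with a symbol. The cause of these shifts was not tested. The ratio stayed over 1 and the opened share over 50% under all 12 alternatives to the choice of members, and 33 of the 48 values lay within the interval or fold of the main value. Of these 33, 4 come from the alternative with protein_coding transcripts only, which kept the same peaks and so could not differ. With whole peaks searched, which gives wider peaks more sequence, the opened and closed motif shares were 28.4% and 13.4% for TEAD, 17.6% and 28.8% for AP-1, 21.3% and 33.3% for the E-box, 10.5% and 6.77% for RBPJ, 18.3% and 13.0% for the CTCF core, 22.0% and 16.7% for the GC box, 32.8% and 29.7% for the CCAAT box and 8.02% and 9.72% for the TATA box. The opened shares were 9.68% for FOX, 7.47% for NKX2 and 5.53% for ETS. The order of the lists thereby turned for FOX (8.16% closed) and for the CCAAT box. With starts within 500 bp the TATA box share of closed peaks was 4.11%, below the 5.56% of opened ones, and with peaks of at least 200 bp only, an alternative chosen after seeing the data, the AP-1 share of closed peaks was 28.4%. Depth per library is unknown, so the smallest counts, such as 8.42 at Rmst, have no error.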
